A study of Mus musculus with 9 samples.

Results

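The genes described here are 50 genes of the cell division cycle, read from the gene table of whole NB9464 tumors by their symbols. They were found as 50 of the 54429 symbols in the table, and all 50 were among the 15931 genes abundant enough to be tested. By the time at which they act, 12 were taken as S phase genes (Mcm2 to Mcm7, Pcna, Rrm1, Rrm2, E2f1, E2f2, E2f8), 8 as other genes of entry into S phase (Tyms, Tk1, Cdc6, Cdt1, Gins2, Ccne1, Ccne2, Mybl2), 4 as G1 cyclins and kinases (Ccnd1, Ccnd2, Cdk4, Cdk6) and 26 as genes of G2 and mitosis (G2/M). The question was whether these genes, and the S phase and G2/M genes separately, differed between treated and untreated tumors.

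NB9464 is a mouse neuroblastoma line whose growth is driven by MYCN. Its cells were grown under the skin of C57BL/6 mice of WT genotype, and mice whose tumors had reached 250 mm3 were divided into 3 groups, each with 3 sequenced tumors. The Vehicle group received the carrier, the R788 + anti-PDL1 group received the Syk inhibitor R788 (fostamatinib) at 50 mg/kg 5 times a week with an antibody against PD-L1 (clone 10F.9G2, 4 times a week), and the Rad + R788 + anti-PDL1 group received 10 Gy of radiation in addition. The series text gives 4 doses from day 28 to day 37. The last 2 groups are called combination tumors and irradiated tumors below, and tumors carry their replicate numbers. Radiation alone and R788 or antibody alone were not analysed here. Replicates are separate samples by their labels. Nothing says which mouse each came from, so p-values measure only the spread between these samples.

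A cell doubles its DNA in S phase and divides it in mitosis, and most genes that serve these steps are switched on only in cycling cells. E2F factors, held back in resting cells by the retinoblastoma protein, turn on the replication genes at the end of G1. A complex of B-MYB (Mybl2), FOXM1 and the MuvB core then turns on the mitotic genes. In a whole tumor, fewer cycling cells and less RNA per cycling cell cannot be told apart.

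Total counts were 18276683 to 23397886 per tumor, and 48 members had at least 100 counts in every tumor. Levels are given as CPM, counts scaled to a common library size with TMM factors, and a count of 0 allows up to 3 counts, or 0.114 to 0.221 CPM, for counting error only. Irradiated tumor 1 stood apart from the other 8 tumors. It had counts for 18263 genes against 19732 to 22129, a TMM factor of 0.743 against 0.975 to 1.12, and 1.97% mitochondrial counts against 3.48% to 5.71%. The tissue label was checked against markers. The neuroblast marker Th had 0 counts in all 9 tumors, only 4 of the 10 neuroblast markers were abundant enough to be tested, and their summed level of 339 to 888 CPM came mostly from Hand2 (324.6 to 867 CPM). The 6 fibroblast markers summed to 2506 to 5367 CPM, mostly from Col1a1 (959 to 2845 CPM) and Col3a1 (400.5 to 2402 CPM). The other 4 ranged from 7.19 CPM (Lum) to 195 CPM (Col1a2). The extraction text of the labels names bone marrow derived macrophages where the tissue label names the whole tumor. In these data the 10 macrophage markers summed to 202 to 1206 CPM.

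The promoters of 4 members are shown. They were picked for the differences given next, although edgeR called no member in any comparison. Mcm2 and Kif11 were lower in the irradiated tumors than in every other tumor, with an unadjusted p-value under 0.05 against either group. Cenpa and Ccnb2 had the highest log2 fold changes between the treated groups among members with a matched promoter. Each sequence is the 250 bases before the start site in RefSeq (GRCm38.p6). Capitals mark the CCAAT box, which reads ATTGG on the other strand, and the cell cycle homology element (CHR), searched as TTTGAA and as TTCGAA on both strands.
Mcm2, chr6:88898781-88899030, minus strand: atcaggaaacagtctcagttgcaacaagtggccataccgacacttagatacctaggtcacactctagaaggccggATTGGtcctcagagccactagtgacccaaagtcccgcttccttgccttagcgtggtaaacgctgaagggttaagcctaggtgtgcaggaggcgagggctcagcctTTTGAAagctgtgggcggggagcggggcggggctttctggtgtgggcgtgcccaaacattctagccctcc
Kif11, chr19:37376132-37376381, plus strand: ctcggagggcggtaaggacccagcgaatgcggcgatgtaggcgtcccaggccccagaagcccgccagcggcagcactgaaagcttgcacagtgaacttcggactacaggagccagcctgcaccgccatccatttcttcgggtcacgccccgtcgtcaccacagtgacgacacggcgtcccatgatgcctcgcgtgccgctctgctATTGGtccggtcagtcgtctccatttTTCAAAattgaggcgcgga
Cenpa, chr5:30666636-30666885, plus strand: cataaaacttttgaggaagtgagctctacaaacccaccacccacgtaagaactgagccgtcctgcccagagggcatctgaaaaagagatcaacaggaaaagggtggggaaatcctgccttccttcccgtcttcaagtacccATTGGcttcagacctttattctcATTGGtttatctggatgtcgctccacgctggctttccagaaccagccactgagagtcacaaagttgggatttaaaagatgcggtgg
Ccnb2, chr9:70421555-70421804, minus strand: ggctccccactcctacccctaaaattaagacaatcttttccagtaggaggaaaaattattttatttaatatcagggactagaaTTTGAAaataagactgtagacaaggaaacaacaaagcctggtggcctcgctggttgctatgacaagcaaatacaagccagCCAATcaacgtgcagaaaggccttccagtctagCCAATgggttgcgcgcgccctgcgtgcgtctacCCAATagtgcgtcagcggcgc

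RefSeq promoters were matched for 39 of the 50 members (41 promoters) and not for Mcm4, Gins2, Ccne2, Ccnd1, Ccnd2, Ccna2, Cdc25c, Aurkb, Kif20a, Tpx2 and Foxm1. Both strands of the 250 bases were searched. A CCAAT box was found in 18 of 20 G2/M promoters (90%), in 12 of 13 S phase promoters (92.3%) and in 0 of 6 promoters of the other S phase entry genes, against 33.8% of all 32851 promoters of the same length. The CHR letters were found in 8 of 20 G2/M promoters (40%) and in 4 of 13 S phase promoters (30.8%), against 17.1% of all promoters. E2F letters (TTTGGCGC, TTTCCCGC, TTTGCCGC or TTTCGCGC) were found in 3 of 13 S phase promoters (23.1%) and 1 of 20 G2/M promoters (5%), against 1.86%.

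The effect of the drug and antibody on the cycle was read from the combination and vehicle tumors. Most members were lower in the combination tumors by a small amount. The median log2 fold change was -0.13 over the S phase genes, -0.20 over the other S phase entry genes and -0.22 over the G2/M genes, against -0.02 over all genes tested, and 43 of the 50 were lower. No member was called by edgeR (0 of 50, where 0.678% of all genes tested were called). An unadjusted p-value under 0.05 was obtained for 2 members, both lower, where 11.7% of all genes had such a value. DESeq2 also called 0 members (4.86% of all genes), whereas limma-voom with sample quality weights called 15, of which 12 were lower, at 30.3% of all genes. All 3 combination tumors lay below all 3 vehicle tumors for 18 members (36.0%), where this held for 16.5% of all genes tested, and above them for 2 members (4.0%), where it held for 13.6%. The 18 were 4 of the 12 S phase genes (Mcm4, Mcm6, Pcna, Rrm2), Gins2, Ccne1, Cdk4 and 11 of the 26 G2/M genes (Ccna2, Ccnb2, Cdk1, Cdc20, Cdc25c, Plk1, Aurka, Bub1b, Cenpa, Kif20a, Ube2c), and the 2 were Cdt1 and Ccnd2.

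The effect of all 3 agents was read from the irradiated and vehicle tumors. The members were again mostly lower by a small amount (33 of 50). Median log2 fold changes were -0.13 for the S phase genes, -0.25 for the other S phase entry genes and -0.21 for the G2/M genes, against 0.05 for all genes tested. No member was called by edgeR (0 of 50, against 0.0439% of all genes) or by DESeq2 (0, against 3.85%). There were 6 members with an unadjusted p-value under 0.05, 5 lower and 1 higher, against 13.2% of all genes. DESeq2 without irradiated tumor 1 called 3 members lower, Mcm2, Top2a and Kif11, where it called 5.96% of all genes, and voom with quality weights called 5 lower at 12.5% of all genes. The irradiated tumors lay wholly below the vehicle tumors for 13 of the 50 members (11.2% of all genes), which were 5 S phase genes (Mcm2, Mcm5, Mcm6, Rrm2, E2f8), Cdc6, Mybl2, Ccnd1 and 5 G2/M genes (Top2a, Ccna2, Bub1, Bub1b, Kif11), and wholly above for Cenpa alone (2.0%; 9.27% of all genes). Without irradiated tumor 1 these numbers were 23 lower (20.2% of all genes) and 1 higher (17.2% of all genes), and the 23 comprised 9 S phase genes, 4 other S phase entry genes, Ccnd1 and 9 G2/M genes. These 2 comparisons share the vehicle tumors.

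What radiation added was read from the irradiated and combination tumors. Members differed in both directions, 25 higher and 25 lower. Median log2 fold changes were 0.08 for the S phase genes and -0.01 for the G2/M genes, against 0.04 for all genes. The S phase median took the other sign without irradiated tumor 1, at -0.07. No member was called by edgeR (0 of 50, against 0.00628% of all genes), and 8 had an unadjusted p-value under 0.05, 5 higher and 3 lower, against 18.4% of all genes. DESeq2 called Cdc25c and Cenpa higher (2 members, against 5.62% of all genes). Without irradiated tumor 1 it called Ccnb2 and Cenpa higher and Mcm2 and E2f8 lower (4 members, against 6.16%), and voom with quality weights called 10 members, 5 in each direction, at 19.3% of all genes. The groups did not overlap for 7 members that were higher (14.0%; 14.2% of all genes) and 5 that were lower (10.0%; 13.2% of all genes), so neither share exceeded that of all genes. Without irradiated tumor 1 the numbers were 9 higher (20.7% of all genes) and 6 lower (17% of all genes).

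**Figure D1:**
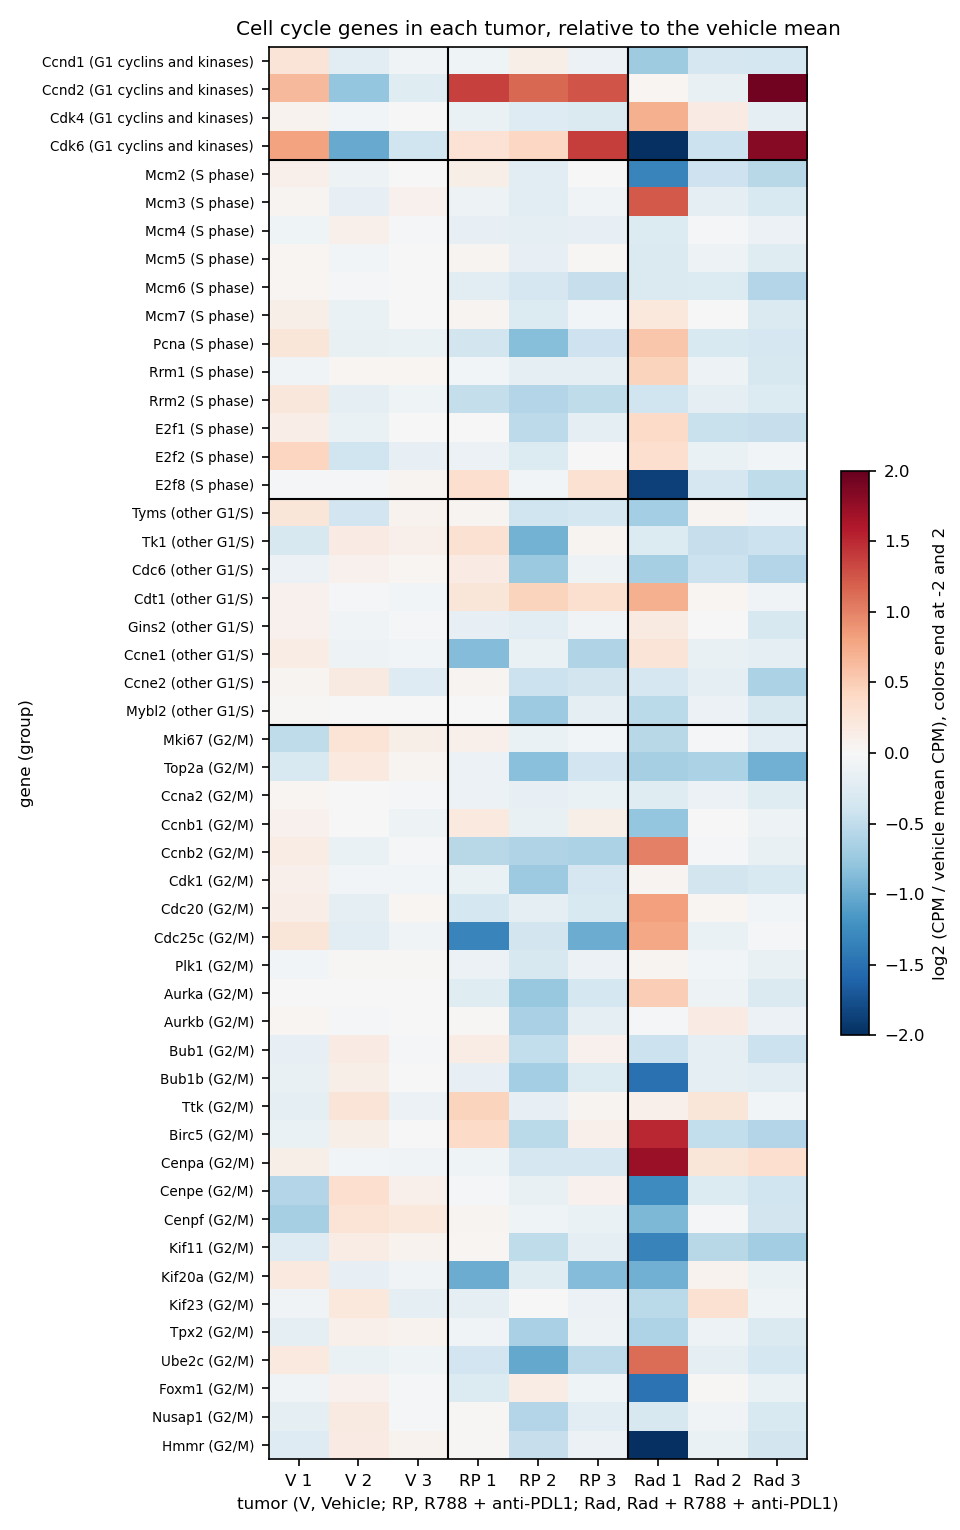
Level of each of the 50 genes (rows, by gene group) in each of the 9 tumors (columns), as log2 of its CPM over the vehicle mean CPM. Combination and irradiated tumors are mostly blue (lower). Irradiated tumor 1 holds the strongest blue, and the strongest red is that of Ccnd2 and Cdk6 in irradiated tumor 3.

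**Figure D2:**
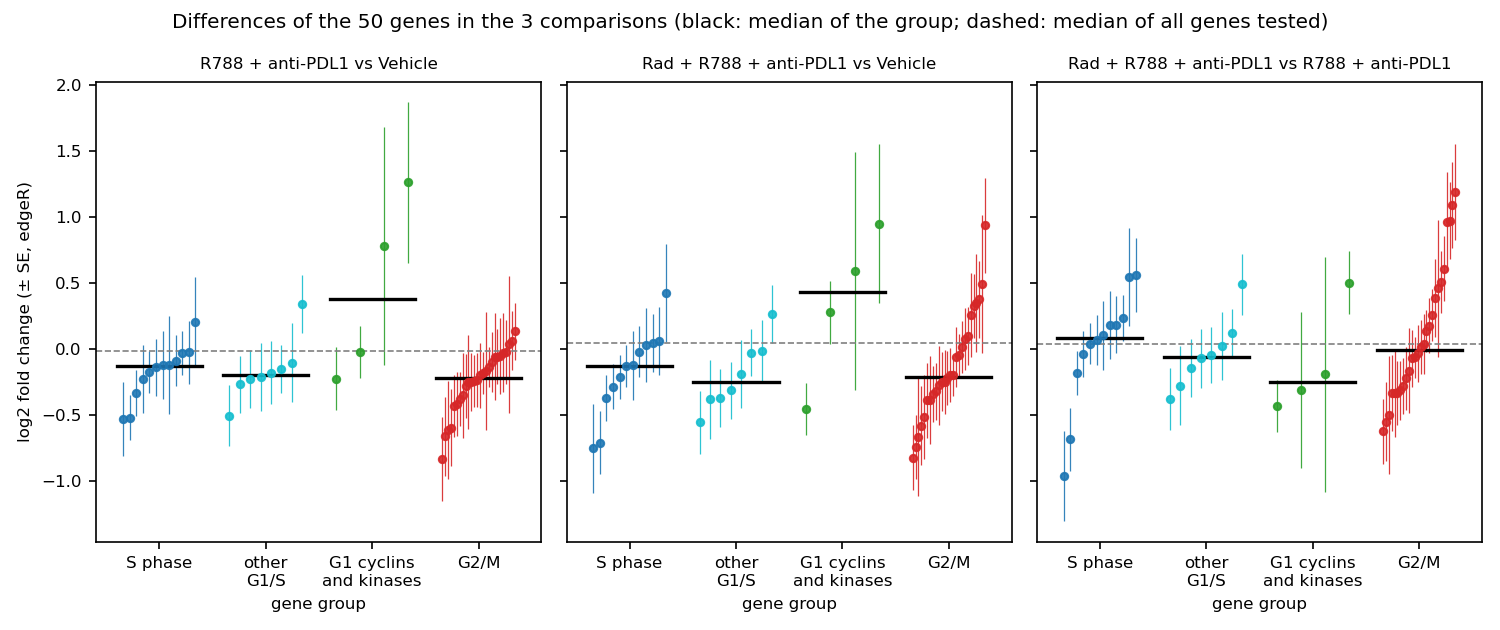
Log2 fold change of each gene (points, with the standard error of edgeR as bars) by gene group in the 3 comparisons, with the median of each group in black and that of all genes tested as a dashed line. The medians of S phase genes (-0.13 and -0.13) and G2/M genes (-0.22 and -0.21) lie below the line in the comparisons with Vehicle and near it in the last.

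The minichromosome maintenance genes Mcm2 to Mcm7 encode the ring that unwinds DNA at replication origins. Mcm2 was at 249.6, 218 and 231 CPM in vehicle tumors 1 to 3, at 253, 201 and 234 CPM in combination tumors and at 93.5, 175 and 158 CPM in irradiated tumors. Its irradiated values lay below both other groups, with a log2 fold change of -0.71 ± 0.24 (SE, adjusted p = 0.30, edgeR) against Vehicle and -0.69 ± 0.24 (adjusted p = 0.23) against the combination. Without irradiated tumor 1 these were -0.46 and -0.45. The vehicle and combination tumors overlapped. Mcm5 was at 313, 293 and 306 CPM in vehicle, 314, 270.4 and 307 CPM in combination and 248, 282 and 256 CPM in irradiated tumors, so only the irradiated tumors lay below the vehicle range. Mcm6 was at 353, 339.9 and 344 CPM in vehicle, 296, 275 and 252 CPM in combination and 283, 287 and 231 CPM in irradiated tumors, and both treated groups lay below all vehicle tumors. Mcm4 was at 209, 236 and 218 CPM, 198, 194 and 197 CPM, and 183, 219 and 203 CPM in the same order, with only the combination below vehicle. Mcm7 overlapped throughout at 253 ± 22.1, 238 ± 27.1 and 249.6 ± 42.6 CPM (SD, n = 3). Mcm3 stood apart in 1 tumor. It was at 346, 298 and 355 CPM in vehicle and 311, 289 and 318 CPM in combination tumors, but at 777, 295 and 269 CPM in irradiated tumors. Its log2 fold change of 0.43 ± 0.37 against Vehicle (adjusted p = 0.58) rested on irradiated tumor 1 and was -0.21 without it.

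Pcna, the sliding clamp of the replicative polymerases, was at 435, 329.9 and 335 CPM in vehicle, 285, 202 and 275 CPM in combination and 537, 296 and 290.0 CPM in irradiated tumors. All combination tumors were lower than all others, and irradiated tumors 2 and 3 were below every vehicle tumor while tumor 1 was above. Against Vehicle the log2 fold change in combination tumors was -0.53 ± 0.28 (adjusted p = 0.54). Rrm2, the regulatory subunit of ribonucleotide reductase that limits deoxynucleotide supply, was at 135, 102 and 108 CPM in vehicle, 82.6, 76.97 and 80.8 CPM in combination and 86.9, 100.3 and 95.3 CPM in irradiated tumors. The 3 groups followed one another without overlap, with vehicle highest and the combination lowest, and the log2 fold change between those was -0.52 ± 0.17 (unadjusted p = 0.0134, adjusted p = 0.25, edgeR), the smallest unadjusted p-value of any member in that comparison. Rrm1, the catalytic subunit, overlapped in every comparison at 267 ± 11.4, 243 ± 12.4 and 276 ± 79.5 CPM.

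The E2F genes were not alike. E2f1, an activator, was at 77.6, 64.3 and 70.8 CPM in vehicle, 70.7, 49.3 and 61.6 CPM in combination and 92.0, 51.8 and 51.3 CPM in irradiated tumors, and the groups overlapped. E2f2, another activator, was at 21.3 ± 6.66, 19.6 ± 1.76 and 22.2 ± 4.04 CPM. E2f8, an atypical E2F that represses the activators' targets late in S phase, was at 39.6, 39.2 and 41.9 CPM in vehicle, 50.8, 38.6 and 50.0 CPM in combination and 11.1, 31.9 and 28.4 CPM in irradiated tumors. All 3 irradiated tumors were below the other 6. The log2 fold change was -0.76 ± 0.34 against Vehicle (adjusted p = 0.38) and -0.96 ± 0.34 against the combination (adjusted p = 0.23), the lowest of any member in the latter. Without irradiated tumor 1 these were -0.39 and -0.62.

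Among the other genes of S phase entry, Cdc6, which loads the MCM ring, was at 53.4 ± 3.87 CPM in vehicle, 47.2 ± 14.3 in combination and 36.3 ± 2.98 in irradiated tumors, and the irradiated tumors did not overlap the vehicle tumors (log2 fold change -0.56 ± 0.24, adjusted p = 0.36). Cdt1, its partner in loading, was the only gene of this kind above the vehicle range in the combination, at 122, 113 and 111 CPM in vehicle and 136, 158 and 144 CPM in combination tumors (log2 fold change 0.34 ± 0.22, adjusted p = 0.64). In irradiated tumors it was at 188, 119 and 109 CPM. Ccne1, the cyclin E that starts S phase with Cdk2, was at 46.5, 39.0 and 40.2 CPM in vehicle, 22.9, 38.1 and 27.5 CPM in combination and 49.9, 37.7 and 36.7 CPM in irradiated tumors. Combination tumors lay below the vehicle range, with tumor 2 close to it (log2 fold change -0.51 ± 0.23, adjusted p = 0.45). Ccne2 was at 37.2, 40.6 and 29.9 CPM in vehicle, 37.4, 26.8 and 27.8 CPM in combination and 28.4, 31.6 and 23.2 CPM in irradiated tumors, with overlap throughout. Mybl2, the B-MYB that carries the programme on to G2, was at 104, 102 and 102 CPM in vehicle, 103, 62.5 and 91.2 CPM in combination and 70.5, 95.3 and 82.2 CPM in irradiated tumors, so the irradiated tumors alone stayed below the vehicle range. The nucleotide synthesis genes Tyms and Tk1 overlapped in all comparisons at group means of 66.8 to 77.5 CPM and 108 to 141 CPM, and Gins2, a helicase subunit, ranged from 70.2 to 100.2 CPM.

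The G1 cyclins and kinases were the least uniform group. Ccnd1, cyclin D1, was at 209, 151 and 166 CPM in vehicle, 165, 191 and 162 CPM in combination and 107, 139 and 137 CPM in irradiated tumors, where it was below all other tumors (log2 fold change -0.46 ± 0.20 against Vehicle, adjusted p = 0.37, and -0.43 ± 0.20 against the combination). The first was -0.30 without vehicle tumor 1. Cdk4, its kinase and the most abundant member per kilobase of transcript in vehicle tumors at 261 CPM per kb, was at 378, 346 and 359 CPM in vehicle, 331, 302 and 295 CPM in combination and 592, 404 and 318 CPM in irradiated tumors. The combination tumors were below the vehicle tumors, and the irradiated tumors overlapped both groups. The other pair was scarce. Ccnd2 was at 3.26, 1.21 and 1.75 CPM in vehicle, 5.33, 4.62 and 4.96 CPM in combination and 2.14, 1.88 and 7.95 CPM in irradiated tumors, which gave the highest log2 fold change of any member against Vehicle in both treated groups, 1.26 ± 0.61 (adjusted p = 0.48) and 0.95 ± 0.61 (adjusted p = 0.47). Cdk6 was at 3.81, 1.08 and 1.64 CPM in vehicle, 2.65, 2.90 and 5.66 CPM in combination and 0.369, 1.62 and 7.72 CPM in irradiated tumors (log2 fold changes 0.78 ± 0.90 and 0.59 ± 0.90 against Vehicle). Both were highest in irradiated tumor 3, and without it the log2 fold changes against Vehicle were -0.05 for Ccnd2 and -1.09 for Cdk6. The 10 macrophage markers summed to 1206 CPM in that tumor and to 202 to 427 CPM in the other 8, with none at 0, and the 10 T and NK cell markers summed to 44.3 CPM against 3.82 to 31.1 CPM, with Cd3d, Cd8a, Cd247, Klrb1c and Ncr1 at 0 in some tumor. The part of these cells in the Ccnd2 and Cdk6 values was not tested.

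Of the G2/M genes, Mki67, the Ki-67 proliferation antigen, was at 256, 438 and 394 CPM in vehicle, 390.0, 329.5 and 349 CPM in combination and 248, 355 and 312 CPM in irradiated tumors. The groups overlapped, and the lowest vehicle tumor was near the lowest tumor of all. The 95% interval of its log2 difference from Vehicle was -0.57 to 0.52 for the combination and -0.79 to 0.29 for the irradiated tumors, and changes within those bounds are not excluded. Top2a, the topoisomerase that untangles chromosomes, was at 569, 799 and 730 CPM in vehicle, 642, 392 and 539 CPM in combination and 440, 450.3 and 360.2 CPM in irradiated tumors. Its irradiated values were below all vehicle values (log2 fold change -0.75 ± 0.24, unadjusted p = 0.0126, adjusted p = 0.28, edgeR).

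The kinase that drives entry into mitosis and its cyclins differed in their patterns. Cdk1 was at 143, 128 and 129 CPM in vehicle, 122, 80.2 and 106 CPM in combination and 138, 103 and 108 CPM in irradiated tumors, and the combination tumors lay below the vehicle range. Ccna2, cyclin A2, varied little within groups, at 279, 269.7 and 263 CPM in vehicle, 250.0, 242 and 247 CPM in combination and 229, 249 and 229 CPM in irradiated tumors, and both treated groups lay below vehicle. Ccnb1 was at 146, 138 and 128 CPM, 157, 124 and 149 CPM, and 80.5, 137 and 128 CPM in the same order, and overlapped throughout. Ccnb2, the other B cyclin, was at 105, 86.0 and 92.2 CPM in vehicle, 64.4, 62.1 and 60.7 CPM in combination and 190, 92.6 and 85.4 CPM in irradiated tumors. The combination tumors stood below all others (log2 fold change of irradiated over combination tumors 0.97 ± 0.29, unadjusted p = 0.00826, adjusted p = 0.22, edgeR), and the log2 fold change was 0.52 without irradiated tumor 1. It has a named pseudogene, at 26 to 156 counts per tumor, and reads may be split between them.

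Of the kinases and activators of mitosis, Plk1 was at 111, 118 and 118 CPM in vehicle, 107, 92.5 and 107 CPM in combination and 121, 112 and 104 CPM in irradiated tumors. Aurka, Aurora A of the spindle poles, was at 112, 113 and 112 CPM in vehicle, 95.1, 66.3 and 88.3 CPM in combination and 158, 105 and 92.1 CPM in irradiated tumors. For both genes the combination tumors were below the vehicle tumors and the irradiated tumors overlapped them. Aurkb, Aurora B of the chromosomal passenger complex, was at 137, 131 and 134 CPM, 136, 85.8 and 118 CPM, and 132, 150.1 and 123 CPM, with overlap. Cdc20, the activator of the anaphase promoting complex, was at 218, 174 and 205 CPM in vehicle, 156, 173 and 162 CPM in combination and 351, 205 and 192 CPM in irradiated tumors. Its log2 fold change was -0.28 ± 0.24 in the combination against Vehicle and 0.61 ± 0.25 (adjusted p = 0.25) in irradiated against combination tumors. Ube2c, the ubiquitin-conjugating enzyme of the same complex, was at 224, 177 and 183 CPM, 150.2, 96.2 and 136 CPM, and 423, 170.3 and 153 CPM, with a log2 fold change of -0.61 ± 0.37 (adjusted p = 0.61) against Vehicle in the combination and 0.96 ± 0.38 (adjusted p = 0.24) between the treated groups. Without irradiated tumor 1, the log2 fold change between the treated groups was 0.29 for Cdc20 and 0.35 for Ube2c. Foxm1, the transcription factor of the G2/M genes, was at 132, 146 and 135 CPM, 114, 152 and 131 CPM, and 49.4, 140.4 and 125 CPM, so that only irradiated tumor 1 lay away from the rest.

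Among chromosome and spindle genes, Cenpa, the centromeric histone, was the only member above the vehicle range in all irradiated tumors. It was at 117, 104 and 104 CPM in vehicle, 101, 85.4 and 85.3 CPM in combination and 357, 128 and 137 CPM in irradiated tumors, with log2 fold changes of 0.94 ± 0.36 (adjusted p = 0.34) against Vehicle and 1.19 ± 0.36 (adjusted p = 0.22) against the combination. Leaving out irradiated tumor 1 brought these to 0.32 and 0.56. Kif11, the motor that separates the spindle poles, was at 170, 225 and 214 CPM in vehicle, 209, 143 and 178 CPM in combination and 80.2, 138 and 125 CPM in irradiated tumors. All irradiated tumors were below the other 6, with log2 fold changes of -0.83 ± 0.25 (unadjusted p = 0.00817, adjusted p = 0.26, edgeR) against Vehicle, the lowest of any member, and -0.63 ± 0.25 (adjusted p = 0.25) against the combination. Relative to the vehicle mean, the 77 tested genes within 5 Mb of Kif11 had medians of -0.68, -0.34 and -0.21 in irradiated tumors. Birc5 (survivin), a passenger protein with Aurora B, was at 285, 341 and 313 CPM in vehicle, 409, 216 and 336 CPM in combination and 892, 222 and 208 CPM in irradiated tumors. Its log2 fold change of 0.49 ± 0.52 against Vehicle became -0.51 without irradiated tumor 1. The remaining G2/M genes Bub1, Bub1b, Ttk, Cenpe, Cenpf, Kif23, Tpx2, Nusap1 and Hmmr had group means from 43.0 to 230 CPM. Bub1b, a spindle checkpoint kinase, was below the vehicle range in both treated groups, Bub1 in the irradiated tumors only, and Cenpe was lower in irradiated than in combination tumors.

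The mean log2 CPM of the 12 S phase genes was 7.33 ± 0.10 in vehicle, 7.15 ± 0.13 in combination and 7.12 ± 0.12 in irradiated tumors (SD, n = 3). The mean of the 26 G2/M genes was 7.18 ± 0.08, 6.94 ± 0.14 and 6.996 ± 0.09, and every treated tumor lay below the lowest vehicle tumor. The gap was narrow, with irradiated tumor 2 at 7.09 and vehicle tumor 1 at 7.10. These means are given with TMM scaling only. The TMM factor was 1.04 in irradiated tumor 2 and 0.975 in vehicle tumor 1, so their order depends on the scaling. The S phase means overlapped, since combination tumor 1 reached 7.26 and vehicle tumor 2 was at 7.23. The balance between the phases, G2/M minus S phase mean, was -0.14 ± 0.18 in vehicle, -0.22 ± 0.01 in combination and -0.12 ± 0.13 in irradiated tumors. Single tumors were at -0.33, 0.03 and -0.13 in vehicle, -0.20, -0.23 and -0.23 in combination and -0.27, -0.03 and -0.06 in irradiated tumors. The groups overlapped, and the differences between their means were smaller than the SD of the vehicle tumors. In sum, the 6 erythroid markers were also lower in every treated tumor. They were at 201 to 625 CPM in vehicle, 58.2 to 109 CPM in combination and 48.9 to 183 CPM in irradiated tumors. The 10 macrophage markers were higher in the combination, at 402 to 427 CPM in sum against 202 to 356 CPM in vehicle. So were the 10 T and NK cell markers (18.5 to 31.1 against 3.82 to 9.61 CPM) and the 4 B cell markers (2.06 to 3.28 against 1.08 to 1.64 CPM). Singly, most markers of these lists overlapped vehicle in the combination. Only Csf1r, Mrc1, Fcgr1, Cd3d, Klrb1c and Ncr1 lay wholly above it. Cd4 weighed heavily in the T and NK cell sum, at 22.9, 2.03 and 12.2 CPM in combination tumors. The means of Cd14 and Cd3e were lower in the combination than in vehicle. The macrophage, T and NK cell and B cell sums overlapped vehicle in irradiated tumors. The 10 neuroblast markers, mostly Hand2, summed to 339 to 466 CPM in vehicle, 442 to 499 CPM in combination and 485 to 888 CPM in irradiated tumors. Only the irradiated tumors were all above vehicle in that sum. The part of these cells in the means was not tested.

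**Figure D3:**
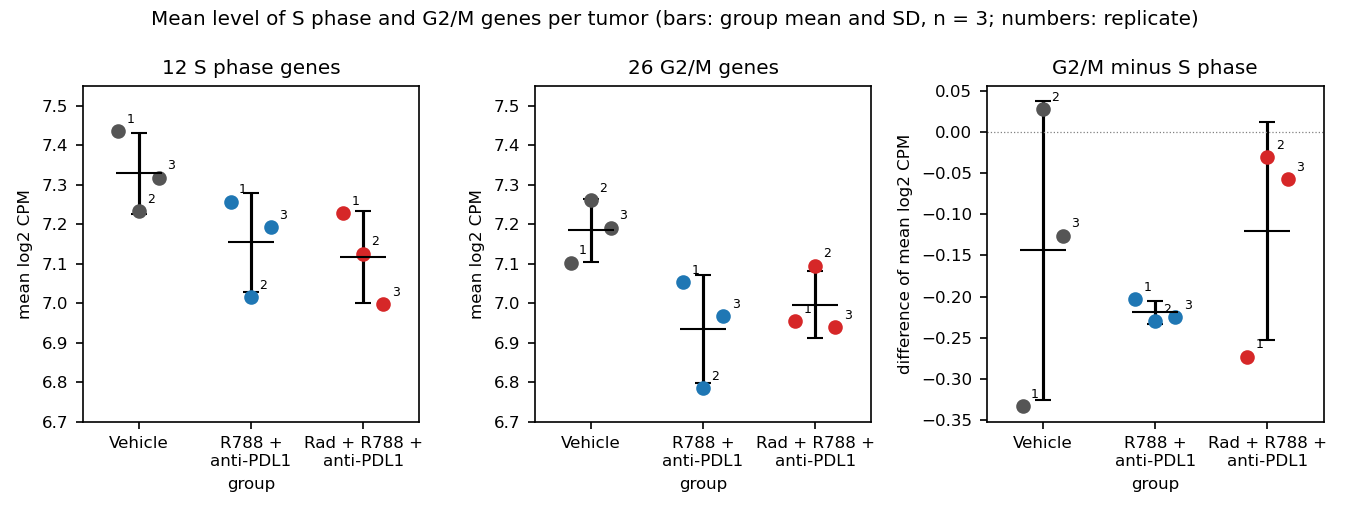
Mean log2 CPM of the S phase genes (left) and the G2/M genes (middle) and their difference (right) in each tumor, with the group mean and SD (n = 3) as bars and replicate numbers beside the points. With TMM scaling, all 6 treated tumors lie below the 3 vehicle tumors for G2/M genes, from 6.79 to 7.09 against 7.10 to 7.26. The gap is narrow and depends on the scaling, and the difference between the phases overlaps.

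The 2 members on chromosome 18 were also the members with the lowest log2 fold changes in the combination against Vehicle. Kif20a, a motor of cytokinesis (chromosome 18, 34624613 to 34633277), was at 294, 228 and 245 CPM in vehicle, 128, 216 and 141 CPM in combination and 131, 267 and 234 CPM in irradiated tumors (log2 fold change -0.66 ± 0.30, adjusted p = 0.44). Cdc25c, a phosphatase that activates Cdk1 (chromosome 18, 34732993 to 34751533), was at 46.6, 33.5 and 37.5 CPM in vehicle, 15.7, 30.4 and 19.7 CPM in combination and 66.8, 35.6 and 38.2 CPM in irradiated tumors (log2 fold change -0.84 ± 0.32, adjusted p = 0.35, and 1.09 ± 0.32, adjusted p = 0.22, between the treated groups). Both were low in combination tumors 1 and 3 and higher in tumor 2. The genes of the whole chromosome were low in the same tumors. Relative to the vehicle mean, the median of the 397 tested genes of chromosome 18 was -0.99 in combination tumor 1, 0.02 in tumor 2 and -0.67 in tumor 3 on the log2 scale, whereas the medians of the other 18 autosomes ran from -0.27 to 0.30 in tumor 1 and from -0.19 to 0.26 in tumor 3. In irradiated tumors 1 to 3 the chromosome 18 median was -0.29, -0.04 and -0.10. The 134 tested genes within 5 Mb of Kif20a had a median of -1.09, 0.13 and -0.67 in the combination tumors, beside which Kif20a and Cdc25c are to be read. Copy number was not measured in these files, and its part was not tested.

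**Figure D4:**
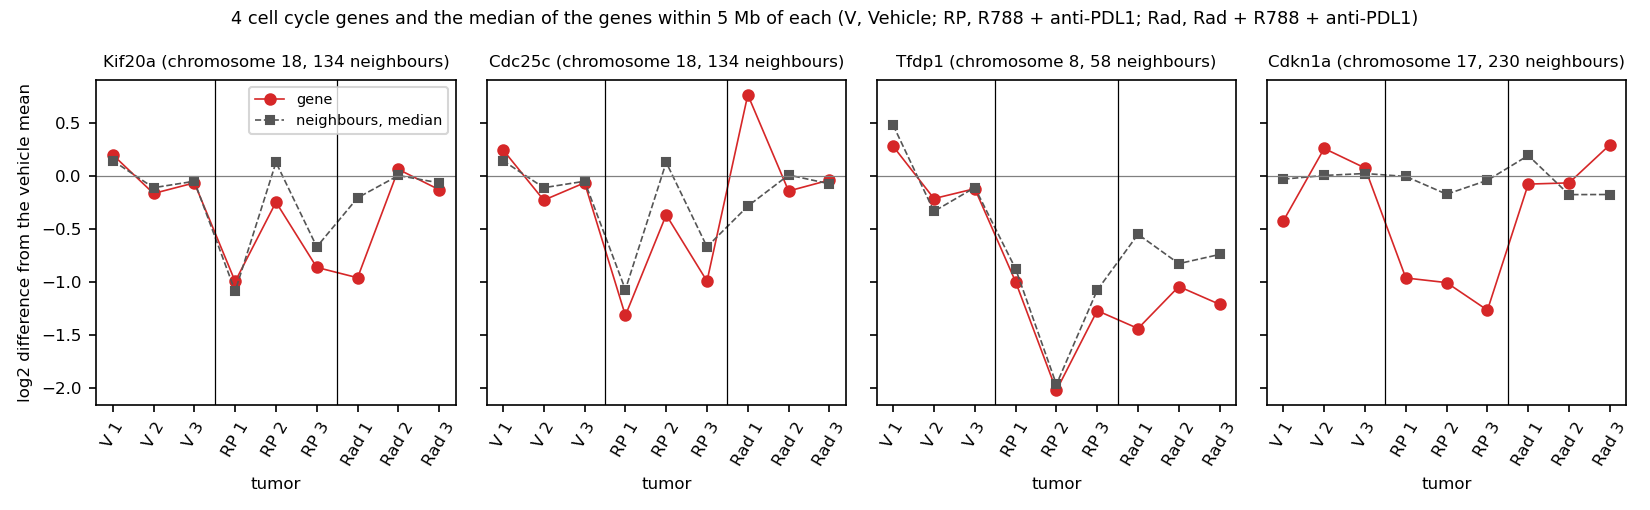
Level of Kif20a, Cdc25c, Tfdp1 and Cdkn1a (red) in each tumor, and the median of the tested genes within 5 Mb of each (grey), both as log2 difference from the vehicle mean. Kif20a, Cdc25c and Tfdp1 run with their neighbours in the combination tumors, while the neighbours of Cdkn1a stay between -0.17 and 0.20.

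Over the 49 members with at least 20 tested genes within 5 Mb, Spearman's rho between a member's log2 fold change and the median of its neighbours was 0.53 in the combination against Vehicle, 0.30 in irradiated tumors against Vehicle and 0.40 between the treated groups. Over 128 other cell cycle genes with as many neighbours, rho was 0.41, 0.37 and 0.33 in the same order. It was not computed over all genes tested. The genes share the same tumors and some share neighbours, so these are descriptions. Only the chromosome 18 pair had neighbour medians as low as -0.49 in the combination against Vehicle. For the members wholly below Vehicle in irradiated tumors, neighbour medians in that comparison had both signs. They were -0.29 for Top2a and Cdc6, -0.26 for Kif11, -0.23 for Mcm6 and -0.17 for Bub1b. Ccna2, Mcm2 and Bub1 had -0.15, -0.11 and -0.07, and Mybl2, Rrm2, E2f8, Mcm5 and Ccnd1 had 0.004, 0.10, 0.12, 0.18 and 0.21. Chromosome 19 (Kif11) had a median of -0.27 and chromosome 11 (Top2a, Cdc6) of -0.13. The part of neighbours was not tested.

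The rest of the pathway was described through 132 further cell cycle genes, all of which were tested. edgeR called 0 of them in each comparison, with unadjusted p-values under 0.05 for 9 (1 higher, 8 lower) in the combination against Vehicle, 14 (2 higher, 12 lower) in irradiated tumors against Vehicle and 35 (26 higher, 9 lower) between the treated groups. Such values were held by 11.7%, 13.2% and 18.4% of all genes. DESeq2 called 2, 4 and 3 of them, where it called 4.86%, 3.85% and 5.62% of all genes. Over all 132 the median log2 fold changes were -0.13, -0.04 and 0.01.

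Among inhibitors of cyclin-dependent kinases, Cdkn1a (p21, the p53-induced inhibitor) was at 19.4, 31.2 and 27.5 CPM in vehicle, 13.4, 13.0 and 10.8 CPM in combination and 24.7, 24.9 and 32.0 CPM in irradiated tumors. The combination tumors were below all other tumors, and irradiated and vehicle tumors overlapped. Its log2 fold change was -1.07 ± 0.24 in the combination against Vehicle (adjusted p = 0.0879 in edgeR and 0.00171 in DESeq2), 0.06 ± 0.23 in irradiated tumors against Vehicle, and 1.14 ± 0.24 between the treated groups (adjusted p = 0.14 in edgeR and 0.000779 in DESeq2). The 230 tested genes near it had medians of 0.00, -0.17 and -0.04 in the combination tumors.

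Cdkn2a, which encodes p16 and p19Arf, was at 225, 138 and 164 CPM in vehicle, 120.0, 113 and 116 CPM in combination and 767, 157 and 159 CPM in irradiated tumors. The irradiated mean rested on tumor 1, and the log2 fold change of 1.04 ± 0.56 against Vehicle became -0.12 without it, while that against the combination was 1.63 ± 0.56 (adjusted p = 0.23) and 0.45 without it. Cdkn2c (p18) was at 25.1, 29.4 and 28.4 CPM, 12.7, 28.8 and 18.8 CPM, and 45.7, 33.6 and 29.1 CPM. Cdkn1b (p27) was at 164, 124 and 127 CPM, 93.6, 156 and 111 CPM, and 112, 139 and 129 CPM, with overlap. Rb1, which encodes the retinoblastoma protein, was at 20.7, 24.3 and 23.2 CPM, 24.5, 24.2 and 20.4 CPM, and 54.4, 24.8 and 26.3 CPM, and irradiated tumors 2 and 3 stood barely above the others. Cdkn1c was near the floor at 0.11 to 2.16 CPM and was the lowest of this list in both comparisons of irradiated tumors (log2 fold changes -1.06 ± 0.96 and -0.88 ± 0.96), while Rbl2, a pocket protein, was the highest in the combination against Vehicle (0.46 ± 0.35).

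Tfdp1, the DP1 partner that E2F factors need to bind DNA, was lower in both treated groups than in any vehicle tumor. It was at 1787, 1269 and 1354 CPM in vehicle, 736, 361 and 609 CPM in combination and 542, 713 and 635 CPM in irradiated tumors, with log2 fold changes of -1.37 ± 0.29 (adjusted p = 0.0832 in edgeR and 0.000438 in DESeq2) and -1.22 ± 0.29 (adjusted p = 0.18 in edgeR and 0.0044 in DESeq2). Its neighbours were lower too. Tfdp1 lies on chromosome 8 (13338751 to 13378448), and the 92 tested genes of that chromosome that end before 15 Mb had a median log2 fold change of -1.31 and -0.64 in these comparisons, while the 762 beyond 15 Mb had 0.07 and 0.22. Relative to the vehicle mean those 92 genes were at -0.86, -1.51 and -1.06 in combination tumors and -0.54, -0.76 and -0.72 in irradiated tumors. Among vehicle tumors they were highest in tumor 1 at 0.38, as was Tfdp1.

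Mycn, the mouse counterpart of the oncogene that drives this line, was at 167, 183 and 128 CPM in vehicle, 194, 127 and 250.3 CPM in combination and 93.3, 130.0 and 141 CPM in irradiated tumors, with overlap in all comparisons (log2 fold change -0.65 ± 0.28 between the treated groups, adjusted p = 0.26, and -0.40 without combination tumor 3). Of the other factors, E2f4, a repressor E2F, was the highest in the combination against Vehicle at 0.33 ± 0.16. Myb was the lowest in both comparisons of irradiated tumors (-1.77 ± 0.61 and -1.53 ± 0.61), from a vehicle range of 3.23 to 19.6 CPM, and at -0.87 against Vehicle without vehicle tumor 1. Lin37, a MuvB subunit, was the highest in both (0.69 ± 0.47 and 1.22 ± 0.47), and these were -0.09 and 0.42 without irradiated tumor 1.

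Wee1, the kinase that holds Cdk1 inactive, was at 51.4, 52.6 and 46.6 CPM in vehicle, 53.2, 43.2 and 48.6 CPM in combination and 23.2, 34.6 and 31.8 CPM in irradiated tumors. Irradiated tumors were below the other 6, with log2 fold changes of -0.75 ± 0.20 against Vehicle (adjusted p = 0.22 in edgeR and 0.0171 in DESeq2) and -0.70 ± 0.20 against the combination (adjusted p = 0.22 in edgeR and 0.0216 in DESeq2). Atm, the kinase of the response to DNA breaks, was at 24.4, 46.9 and 51.3 CPM in vehicle, 86.9, 57.1 and 60.2 CPM in combination and 35.2, 37.0 and 35.0 CPM in irradiated tumors. It was above both other groups in the combination, at log2 fold changes of 0.74 ± 0.29 (adjusted p = 0.36) against Vehicle and -0.93 ± 0.29 (adjusted p = 0.22) in irradiated against combination tumors. Chek2 was the lowest of the checkpoint list in the combination against Vehicle (-0.30 ± 0.30). Pkmyt1, a relative of Wee1, was the highest in both comparisons of irradiated tumors (0.26 ± 0.26 and 0.37 ± 0.26), at -0.08 and 0.01 without irradiated tumor 1.

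In the replication machinery, Rpa1, the large subunit of the single-strand binding protein, was at 304, 286 and 282 CPM in vehicle, 265, 173 and 245 CPM in combination and 171, 177 and 160.2 CPM in irradiated tumors, and Pola2, a subunit of the primase complex, was at 111, 99.96 and 107 CPM, 94.1, 68.1 and 92.6 CPM, and 69.6, 73.6 and 61.1 CPM. Both treated groups lay below Vehicle for both genes. In irradiated tumors against Vehicle the log2 fold changes were -0.78 ± 0.20 for Rpa1 (adjusted p = 0.20 in edgeR and 0.0121 in DESeq2) and -0.64 ± 0.19 for Pola2 (adjusted p = 0.26 in edgeR and 0.0482 in DESeq2). Gins1 was the lowest of the list in the combination against Vehicle (-0.61 ± 0.35) and Cdc7, the kinase that fires origins, the highest (0.41 ± 0.21). Pold1 was the highest in irradiated tumors against Vehicle (0.94 ± 0.49) through 472 CPM in irradiated tumor 1 against 108 and 123 CPM in the others. Between the treated groups, Rfc4 of the clamp loader was the highest (1.17 ± 0.42, and 0.39 without irradiated tumor 1) and Orc1 of the origin complex the lowest (-0.68 ± 0.23).

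Of the 54 other mitosis genes, Cdkn3, a phosphatase of Cdk1 and Cdk2, was at 25.3, 27.7 and 25.2 CPM in vehicle, 14.0, 9.40 and 13.1 CPM in combination and 52.6, 21.3 and 18.7 CPM in irradiated tumors. The combination tumors were below all others, with log2 fold changes of -1.10 ± 0.38 (adjusted p = 0.28) against Vehicle and 1.34 ± 0.38 (adjusted p = 0.22 in edgeR and 0.0315 in DESeq2) in irradiated against combination tumors, and the latter was 0.72 without irradiated tumor 1. Knl1, the kinetochore scaffold, was lowest in irradiated tumors (-1.12 ± 0.52 against Vehicle and -1.19 ± 0.52 against the combination) at 9.59, 46.2 and 47.8 CPM, and its log2 fold changes were -0.65 and -0.74 without tumor 1. Pttg1 (securin) was the highest in irradiated tumors against Vehicle (0.85 ± 0.50), through 74.9 CPM in irradiated tumor 1 against 16.9 and 19.6 CPM in the others. Cit, the kinase of cytokinesis, was the highest in the combination against Vehicle (0.52 ± 0.55). The other cyclins and kinases had log2 fold changes from -0.34 (Mnat1) to 0.10 (Ccnd3) in the combination against Vehicle, from -0.33 (Ccng1) to 0.48 (Mnat1) in irradiated tumors against Vehicle, and from -0.15 (Cdk2) to 0.82 (Mnat1) between the treated groups.

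Irradiated tumor 1 gave the highest level of the 9 tumors for 17 members and the lowest for 16, so that it was outermost for 66.0% of the members and for 65.1% of all genes tested. Against the mean of irradiated tumors 2 and 3, 27 members were past 1.5-fold in it, 13 higher and 14 lower, where 64.2% of all genes tested were. The highest ratios were 4.15 for Birc5, 2.75 for Mcm3, 2.69 for Cenpa, 2.62 for Ube2c and 2.13 for Ccnb2. The lowest were 0.0790 for Cdk6, 0.237 for Hmmr, 0.367 for E2f8, 0.372 for Foxm1 and 0.408 for Bub1b.

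Shorter transcripts were higher in this tumor. Over the 50 members, Spearman's rho between transcript length and the deviation of irradiated tumor 1 from the mean of its group was -0.56, and over the 26 G2/M genes it was -0.71, against -0.45 over 15845 genes with a length. Of the 17 shortest members (906 to 2193 bases) 13 were higher in it than in the other irradiated tumors, with a median log2 ratio of 0.72. Of the 17 longest (3589 to 11130 bases) 5 were higher, with a median of -0.42. Vehicle tumor 1 showed a like slope for the G2/M genes (rho -0.85 over 26 genes), which was weaker over all genes (-0.23), and the long genes Mki67, Cenpe and Cenpf were lowest there among vehicle tumors. In the combination tumors rho over the G2/M genes ran from -0.07 to 0.14. Deviations within a group sum to 0, so the other tumors of those groups mirror these slopes. RNA quality scores were not given in the sources used here, and the part of length in the fold changes was not tested.

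**Figure D5:**
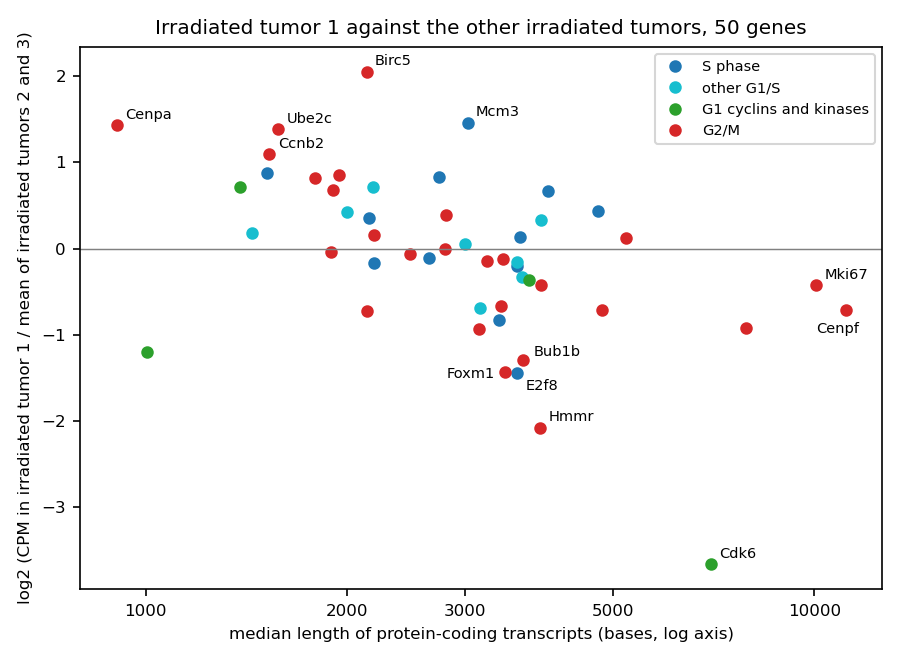
Log2 ratio of CPM in irradiated tumor 1 to the mean of irradiated tumors 2 and 3 for each of the 50 genes, against the median length of its protein-coding transcripts (log axis), colored by gene group. The 5 named genes at the top are between 906 and 3031 bases long, and Mki67 and Cenpf at the right, the longest, lie below 0.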

How the data were processed

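RNA of 9 whole NB9464 tumors was sequenced after polyA enrichment. The authors deposited estimated counts per gene from Salmon. The submitters' processing notes name STAR 2.6.1d, Salmon 1.4.0, SAMtools 1.9, Picard 2.26, MultiQC 1.11 and the build mm10, and the strand setting is not given in the sources used here. Estimated counts were rounded, and 26464 of 54429 symbols had 0 counts in all tumors. Genes passing filterByExpr (minimum count 10) were tested with edgeR 4.0.16 (quasi-likelihood, TMM, all 9 tumors in 1 fit, Benjamini-Hochberg adjustment over all 15931 genes, threshold 0.05) in R 4.3.3. DESeq2 1.42.0, limma 3.58.1 (voom, with and without sample quality weights), other scalings and filters, a replicate block and leaving out each tumor were alternatives. Coordinates and lengths came from GENCODE M21 (GRCm38), promoters from RefSeq. Reads of 25 members may be shared with a gene overlapping on either strand, and 4 members have named pseudogenes. The script was tested on simulated data for the irradiated against vehicle comparison. There edgeR called 58% of 100 genes changed 4-fold and 76% of 100 genes changed 8-fold. Smaller changes were not simulated. No 2 libraries agreed within sampling noise.

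The members and lists were chosen with earlier results of these data known. Values are given for 25 standard members fixed by name, for the 3 members with the highest and the 3 with the lowest log2 fold change in each comparison, and for 7 other cell cycle genes and the extremes of each list. Further members and DESeq2 calls were chosen after their values were seen. The labels name both whole tumors and macrophages as the source of RNA, and paired reads. Some single markers are not reported here.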

Additional observations from a re-analysis of the deposited data

How the results depend on the processing

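edgeR called 0 members and 0 of the 132 other cell cycle genes in every comparison with any single tumor left out, with RLE or upper-quartile scaling, with total-count scaling (chosen after seeing the data) and with a stricter filter, and voom without weights called 0 as well. Members called in combination against vehicle tumors were 15 with quality weights and 1 (Ccnb2) with only the 6 tumors compared; other genes called were 2 by DESeq2, 32 with weights, 1 (Tfdp1) without a filter and 5 with only 6 tumors. In irradiated against vehicle tumors, DESeq2 without irradiated tumor 1 (chosen after seeing the data, as was the count of separated members without that tumor) called 3 members and weights 5, and other genes called were 4 by DESeq2, 5 by DESeq2 without that tumor and 15 with weights. Between the treated groups the members called were 2, 4 and 10 and the other genes 3, 5 and 25 under the same 3 settings. Over all genes tested, edgeR called 108, 7 and 1 in the 3 comparisons, DESeq2 770, 611 and 822, voom 111, 12 and 8, weights 4835, 1993 and 3080, no filter 199, 70 and 24, only 6 tumors 594, 1 and 0, and total-count scaling 0, 1 and 0. Leaving out 1 tumor gave 0 to 75, 1 to 57 and 0 to 21. The fit with the replicate block called 0, 3 and 0 of all genes and 0 members. Deviations from the group means in same-numbered tumors correlated at -0.05 to 0.23 in 9 pairs, 2 of them above 0.1. The highest were irradiated with vehicle tumor 1 (0.23) and irradiated with vehicle tumor 2 (0.19), against at most 0.12 for tumors of different number. The labels do not say what the numbers mark, and a shared day or batch was not tested.

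Total-count scaling put the median of all genes at 0.13 in combination against vehicle and at -0.14 between the treated groups, and upper-quartile scaling put it at 0.11 in irradiated against vehicle tumors. With total-count scaling the S phase median was 0.0134 and the G2/M median -0.0799 in combination against vehicle, and -0.1418 and -0.1898 between the treated groups. The S phase median between the treated groups was -0.0878 by DESeq2 without irradiated tumor 1, -0.0685 with weights, and -0.0717 to 0.2048 with 1 tumor left out. In combination against vehicle tumors, Wee1 was at 0.0211 with weights, 0.0871 with total-count and 0.0267 with upper-quartile scaling and -0.1321 to 0.0179 with 1 tumor left out, and Ccnd3 at -0.0869 to 0.2868. The other changes of sign came in comparisons of irradiated tumors. Against Vehicle, by DESeq2 without irradiated tumor 1 and with weights, Mcm3 was at -0.2267 and -0.2304, Birc5 at -0.5274 and -0.4998, Pold1 at -0.0669 and -0.0197, Pttg1 at -0.1604 and -0.0396 and Pkmyt1 at -0.0939 and -0.078. By the former alone, Cdkn2a was at -0.1411, Lin37 at -0.1077 and Mnat1 at -0.0236. With 1 tumor left out the ranges were -0.2106 to 0.683 for Mcm3, -0.5109 to 0.8274 for Birc5, -0.0511 to 1.2837 for Pold1, -0.1449 to 1.1904 for Pttg1, -0.0767 to 0.4137 for Pkmyt1, -0.1241 to 1.3891 for Cdkn2a, -0.0915 to 0.9809 for Lin37, -0.007 to 0.6859 for Mnat1, -1.0918 to 1.2792 for Cdk6, -0.049 to 1.4466 for Ccnd2, -0.0979 to 0.2102 for Cdkn1a and -1.6287 to 0.0233 for Cdkn1c. Between the treated groups, DESeq2 without irradiated tumor 1 and weights put Mcm3 at -0.1267 and -0.1162, Birc5 at -0.5836 and -0.6043 and Cdk2 at 0.0633 and 0.0098, and the former put Pkmyt1 at -0.0127. The leave-out ranges there were -0.1095 to 0.8076 for Mcm3, -0.5653 to 0.7955 for Birc5 and -0.2927 to 0.081 for Cdk2. The cause was not tested. Ccnd2 and Cdk6 had under 100 counts in some tumor, which limits their precision.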
